A study of Drosophila melanogaster with 8 samples.

Results

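The antimicrobial peptide genes are a set of 10 Drosophila genes, AttA, AttB, AttC, CecA1, CecC, DptB, Dro, Drs, Mtk and Def, chosen by symbol from the 16727 genes of the deposited tables. All 10 were found, and 9 passed the filter for testing. Def did not, because it reached 1 FPKM in 1 library only.

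RNA came from fly heads of 2 genotypes collected at 2 times, with 2 libraries for each combination and 8 in all. The mutant carried vriΔ679, an allele of vrille (vri), and was collected at ZT14, in the dark, and at ZT2, in the light. The reference genotype was labelled wild type, of strain w1118, and was collected at the same times. All flies were kept in cycles of 12 h light and 12 h dark at 25 °C and entrained for 3 days before collection. The labels give no age, no sex, no number of heads per library and no infection treatment, and they do not say whether a genetic background was shared. The labels do not say that the replicates were separate fly cultures, so p-values cover only the spread between these samples, which may be technical.

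Antimicrobial peptides are short secreted peptides of the fly's innate defence. The fat body makes most of them after infection, and blood cells, gut and other epithelia also contribute. The Imd pathway, which senses bacterial peptidoglycan and ends in the NF-κB factor Relish, and the Toll pathway, which ends in the NF-κB factors Dif and Dorsal, switch their genes on. Transcripts of these genes can change manifold within hours of an immune challenge. Vrille is a transcriptional repressor of the circadian clock, and the comparisons of genotype and time addressed here are those the design implies.

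Levels are FPKM, read counts divided by transcript length and by the mapped reads of the library, summed over the transcripts of a gene and scaled between libraries. Because FPKM is per length, levels can be set side by side between genes, though only roughly here. The members' transcripts are short, at 268 to 900 nt, and the levels of near-identical copies depend on how reads were divided. In a bulk sample, fewer cells of a type and less RNA per cell cannot be told apart. Each library had 49.3 to 65.4 M mapped reads by an estimate from the coverage column. At that depth 3 reads on a transcript of the length of Mtk correspond to 0.171 to 0.227 FPKM and on one of the length of AttC to 0.0509 to 0.0676 FPKM. The least covered value of a tested member, CecC in vriΔ679 ZT2 replicate 1, rested on an estimated 14.3 reads, and the best covered, AttC in vriΔ679 ZT2 replicate 2, on an estimated 12895.

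The level of vri itself was used to check the labels. Long vri transcripts were taken as those with the most frequent start coordinate among the vri transcripts (5305650). This class was not checked against transcript length, strand or what the allele removes. They made up 1.00% of vri FPKM in vriΔ679 ZT14 replicate 1 and 0.504% and 0.275% in the vriΔ679 ZT2 libraries, against 95.5 to 99.6% in the wild-type libraries. Such shares depend on how reads were divided among the transcripts. In the library labelled vriΔ679 ZT14 replicate 2 the share was 74.1%, which by itself goes against its label. Its total vri level was 40.6 FPKM, against 21.8 FPKM in vriΔ679 ZT14 replicate 1 and 85.9 and 72.6 FPKM in wild type at ZT14. Drsl5 stood there at 497 FPKM, against 682 FPKM in replicate 1 and 113 and 83.3 FPKM in wild type at ZT14. Uev1A stood at 132 FPKM, against 145 FPKM in replicate 1 and 41.0 and 44.3 FPKM in wild type at ZT14. Whether the label is right was not tested. The members' medians that rest on this library are given with and without it, as are the counts of peptide, Imd and Toll genes called between genotypes. Counts of tissue markers, and of Imd and Toll genes called with time in vriΔ679, are given with it only.

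The antimicrobial peptide genes were present in every head library, and their summed level differed by up to 14.6-fold between replicates of one group. The sum over the 10 genes was 470 and 81.0 FPKM in vriΔ679 at ZT14, the second value from the library labelled vriΔ679 ZT14 replicate 2. It was 129 and 1890 FPKM in vriΔ679 at ZT2, against 375 and 409 FPKM in wild type at ZT14 and 787 and 2028 FPKM in wild type at ZT2, with replicate 1 first in each pair. Between replicates these sums differed 5.81-fold in vriΔ679 at ZT14 and 14.6-fold at ZT2, against 1.09-fold in wild type at ZT14 and 2.58-fold at ZT2. The 2 highest libraries were the second replicates of both ZT2 groups, one of each genotype.

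**Figure D1:**
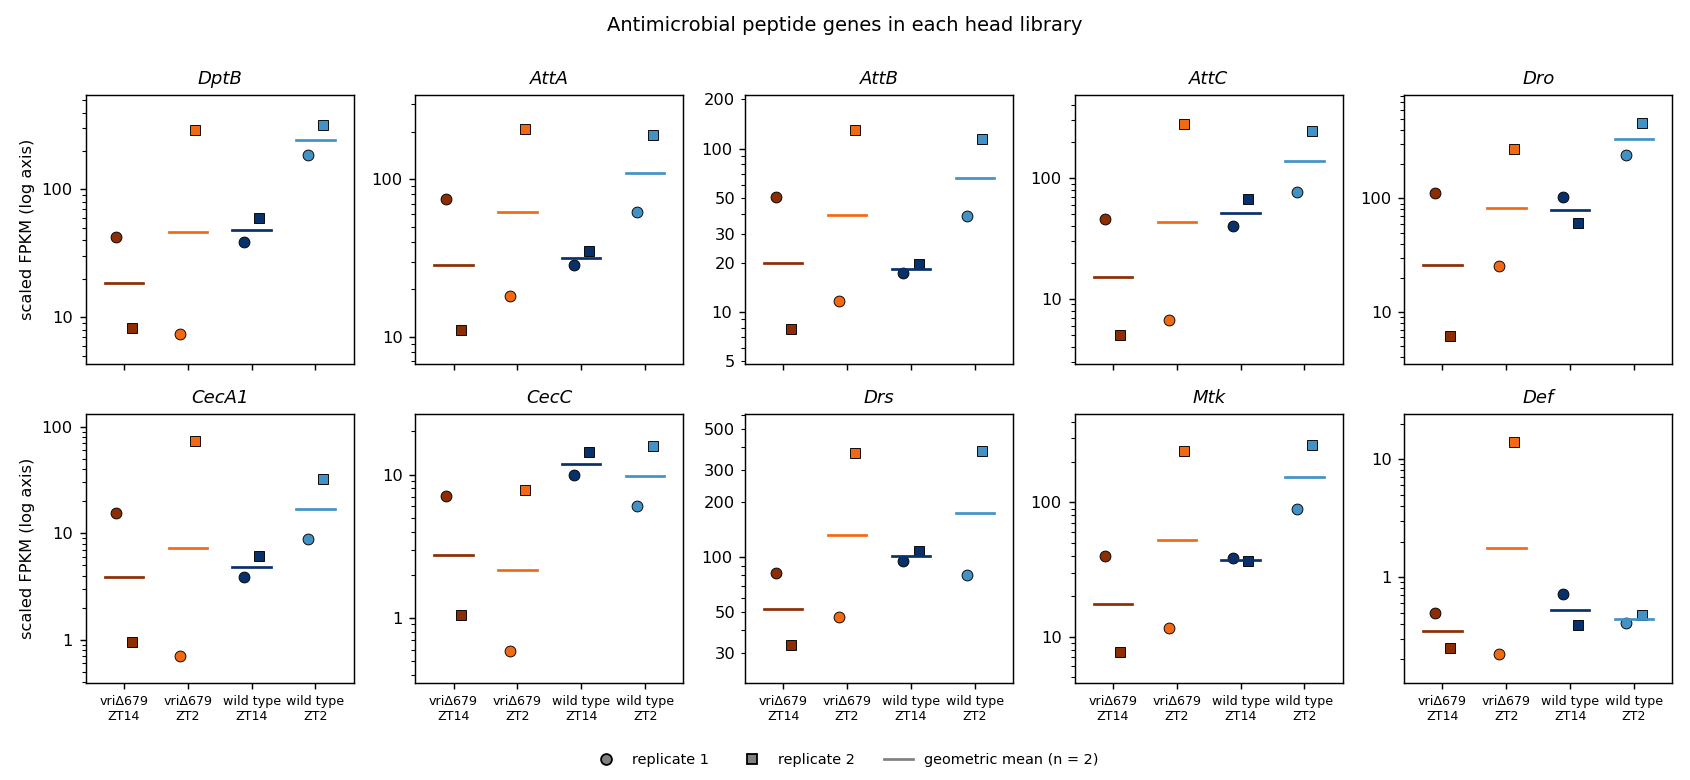
Level of each antimicrobial peptide gene in every head library, as scaled FPKM on log axes, with circles for replicate 1, squares for replicate 2 and a line at the geometric mean of the group (n = 2). The squares of both ZT2 groups stand high in nearly every panel, and the vriΔ679 points of each group lie far apart; Dro, for example, had 112 and 6.11 FPKM in vriΔ679 at ZT14.

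Diptericins, attacins, cecropins and drosocin are peptides active mainly against Gram-negative bacteria, and their genes answer mainly to the Imd pathway. DptB, a diptericin (2R 18867391–18867895), had 42.3 and 8.19 FPKM in vriΔ679 at ZT14 and 7.35 and 291 FPKM at ZT2, against 38.5 and 60.1 FPKM in wild type at ZT14 and 186 and 319 FPKM at ZT2. Both wild-type ZT2 libraries stood above all other libraries except vriΔ679 ZT2 replicate 2, and at each time the vriΔ679 values lay on both sides of the lower wild-type value. Dro, which encodes drosocin (2R 14745961–14746714), had 112 and 6.11 FPKM in vriΔ679 at ZT14 and 25.3 and 272 FPKM at ZT2, against 103 and 61.2 FPKM in wild type at ZT14 and 240 and 460 FPKM at ZT2. Its range over the 8 libraries was 75.2-fold. Its 2 annotated transcripts, of 355 and 754 nt, took uneven shares of the reads, so the sum depends on how StringTie divided them. In the library labelled vriΔ679 ZT14 replicate 2 all of an estimated 285 reads were on the long form, whereas in vriΔ679 ZT14 replicate 1 an estimated 2237 were on the short form and 2.24 on the long one.

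The 3 attacin genes lie on chromosome arm 2R. AttA (14747362–14748215) had 74.9 and 11.0 FPKM in vriΔ679 at ZT14 and 18.2 and 207 FPKM at ZT2, against 28.6 and 35.1 FPKM in wild type at ZT14 and 62.0 and 191 FPKM at ZT2. AttB (14749223–14750165), the next gene and a near-identical copy, had 50.8 and 7.80 FPKM in vriΔ679 at ZT14 and 11.6 and 130 FPKM at ZT2, against 17.2 and 19.7 FPKM in wild type at ZT14 and 38.7 and 114 FPKM at ZT2. At ZT14 and at ZT2 the wild-type values of both genes lay between the 2 vriΔ679 values. The ratio of AttA to AttB stayed between 1.41 and 1.78 in the 8 libraries while AttA itself ranged 18.8-fold. How reads were divided between the copies was not stated, so each copy's own level is uncertain.

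AttC (13393705–13394667), a more distant attacin, had 45.9 and 4.999 FPKM in vriΔ679 at ZT14 and 6.73 and 280 FPKM at ZT2, against 40.2 and 66.9 FPKM in wild type at ZT14 and 77.0 and 247 FPKM at ZT2. Its ratio to AttA was less steady than that of AttB and ran from 0.370 in vriΔ679 ZT2 replicate 1 to 1.91 in wild-type ZT14 replicate 2. Exons of AttC and DptB overlap those of an antisense gene each, CG4744 and CG43109. These partners stood at 0 to 0.0561 FPKM and 0.218 to 1.22 FPKM, and no strand setting for counting was stated.

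The cecropin genes were the low end of the tested set, and they lie together on 3R. CecA1 (30210874–30211273) had 15.5 and 0.958 FPKM in vriΔ679 at ZT14 and 0.704 and 73.8 FPKM at ZT2, against 3.85 and 6.17 FPKM in wild type at ZT14 and 8.76 and 32.6 FPKM at ZT2. The highest of these values was 105-fold the lowest, and both came from vriΔ679 at ZT2. CecC (30216484–30216938) had 7.04 and 1.06 FPKM in vriΔ679 at ZT14 and 0.588 and 7.84 FPKM at ZT2, against 9.92 and 14.3 FPKM in wild type at ZT14 and 5.99 and 15.9 FPKM at ZT2. For CecC both wild-type ZT14 libraries stood above both vriΔ679 ZT14 libraries, and its highest value was in wild-type ZT2 replicate 2. CecA2, a near-identical copy of CecA1, was not a member, and the ratio of CecA1 to CecA2 ran from 0.915 to 1.93.

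Drs encodes drosomycin, an antifungal peptide controlled mainly by Toll. It lies at 3L 3369556–3369942 and had 82.0 and 32.9 FPKM in vriΔ679 at ZT14 and 47.2 and 371 FPKM at ZT2, against 94.9 and 109 FPKM in wild type at ZT14 and 79.5 and 378 FPKM at ZT2. Its 11.5-fold range was the narrowest of the 10 genes, and the 6 libraries other than the second replicates of the ZT2 groups lay between 32.9 and 109 FPKM. Mtk (2R 15408846–15409113), which encodes metchnikowin, a peptide active against fungi and Gram-positive bacteria and under both pathways, had 39.7 and 7.67 FPKM in vriΔ679 at ZT14 and 11.5 and 243 FPKM at ZT2, against 38.5 and 36.5 FPKM in wild type at ZT14 and 89.0 and 270 FPKM at ZT2. Both wild-type ZT2 values of Mtk stood above both wild-type ZT14 values.

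Def encodes defensin, active against Gram-positive bacteria, and lies at 2R 10054178–10054576. It stood at 0.491 and 0.251 FPKM in vriΔ679 at ZT14 and 0.221 and 13.8 FPKM at ZT2, against 0.715 and 0.393 FPKM in wild type at ZT14 and 0.405 and 0.476 FPKM at ZT2. In 7 libraries these values rested on an estimated 5.55 to 18.1 reads and in vriΔ679 ZT2 replicate 2 on an estimated 282. Def was tested only in the setting with no filter on low values, where it was not called.

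Drs or Dro was the highest member in every library, Drs in 4 libraries and Dro in 4. Drs took 10.1 to 40.7% of the members' summed FPKM and Dro 7.55 to 30.5%, and their order changed between replicates in both ZT14 groups. At ZT2 Drs stood above Dro in both vriΔ679 libraries, and Dro above Drs in both wild-type libraries. DptB, AttC, Mtk and AttA followed, with median ranks of 3.5, 5, 5 and 6 among the 10 genes, and each of them changed place with a neighbour between replicates of a group. AttB had a median rank of 7, below AttA in all 8 libraries. CecA1 and CecC held ranks 8 to 10, and Def was lowest in 7 libraries and ninth in vriΔ679 ZT2 replicate 2, above CecC.

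Replicates of one group differed, and the members differed in the same direction. In vriΔ679 at ZT14 all 9 tested members were higher in replicate 1, by 2.49-fold (Drs) to 18.2-fold (Dro), with a median of 6.67-fold. In vriΔ679 at ZT2 all 9 were higher in replicate 2, by 7.86-fold (Drs) to 105-fold (CecA1), with a median of 13.3-fold. In wild type at ZT14 7 members were higher in replicate 2 and 2 in replicate 1, with gaps of 1.05-fold to 1.68-fold. In wild type at ZT2 all 9 were higher in replicate 2, by 1.72-fold (DptB) to 4.76-fold (Drs).

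A gap of 4-fold or more on the log2(scaled FPKM + 0.5) scale was found for 8 of the 9 members in vriΔ679 at ZT14, against 0.85% of the 10122 genes tested. It was found for 9 of 9 members in vriΔ679 at ZT2, against 0.672% of all genes, for 0 members in wild type at ZT14, against 0.474%, and for 1 member, Drs, in wild type at ZT2, against 0.494%. The direction of the gap in all genes was near balance, with 47.9 to 56.4% of genes higher in replicate 1. The median gap over all genes was 0.317 log2 units in vriΔ679 at ZT14, against 0.102 to 0.129 in the other groups. Deposited FPKM summed over all transcripts to 618398 in vriΔ679 ZT14 replicate 1, against 528945 to 559141 in the other libraries. The part of RNA quality in the members' gaps was not tested. The residual SD of the members within groups, from the fit described next, was 1.39 (Drs) to 2.53 (CecA1) on the log2 scale, with a median of 1.83 over the 9 members and of 0.165 over all genes. The members' SDs were larger than those of 99.2 to 99.9% of the genes tested. That replicates of these genes differed was known when the set was chosen, so these gaps are a description.

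**Figure D2:**
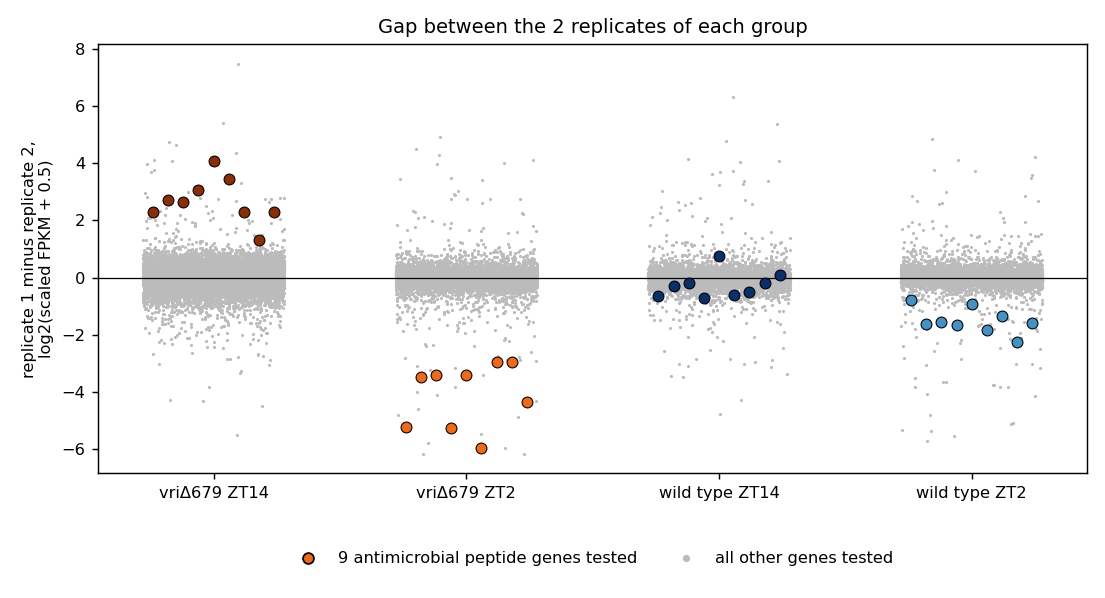
Replicate 1 minus replicate 2 of each group on the log2(scaled FPKM + 0.5) scale, with large points for the 9 tested antimicrobial peptide genes and small grey points for all other genes tested. All 9 members lie above 0 in vriΔ679 at ZT14 and below 0 in both ZT2 groups, and they stay within 0.75 of 0 in wild type at ZT14.

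Markers of tissues that make these peptides were measured in the same libraries. With replicate 1 first in each pair, the 13 fat body markers summed to 2734 and 1757 FPKM in vriΔ679 at ZT14 and 10733 and 6941 FPKM at ZT2. In wild type they summed to 7553 and 3688 FPKM at ZT14 and 13425 and 8510 FPKM at ZT2. The sum was higher in replicate 1 in every group, whereas the tested members were higher in replicate 2 in both ZT2 groups. The yolk protein genes Yp1, Yp2 and Yp3 were the highest of these markers in each library, at 364 to 5599 FPKM, so the sum mainly follows them. The labels give no sex, and the part of the sex of the flies in this sum was not tested. Other markers could order the replicates differently: Fbp2 had 0.245 and 0.122 FPKM in vriΔ679 at ZT14 and 5.59 and 5.83 FPKM at ZT2, against 2.22 and 6.34 FPKM in wild type at ZT14 and 0.441 and 0.196 FPKM at ZT2. Of the fat body markers, 9 reached 1 FPKM in all libraries and Lsp1alpha stayed below 1 FPKM in all. The 12 hemocyte markers summed to 79.9 and 95.9 FPKM in vriΔ679 at ZT14 and 125 and 146 FPKM at ZT2. In wild type they summed to 128 and 165 FPKM at ZT14 and 166 and 132 FPKM at ZT2. He stayed below 1 FPKM throughout. The 8 gut markers summed to 25.7 to 65.8 FPKM over all libraries, with 5 of them below 1 FPKM in every library and Jon65Aiv at 0 in all. All 5 neuron, 5 glia, 5 photoreceptor and 5 muscle markers reached 1 FPKM in every library. Markers were also compared between the genotypes at ZT14, where 12.8% of all genes were lower in vriΔ679 and 9.53% higher. Of 12 tested fat body markers 6 were lower (median difference −1.06), as were 2 of 11 hemocyte markers (−0.67). So were 3 of 5 glia markers (−0.75) and 3 of 5 muscle markers (−0.80), with 0 higher in each of these lists. Of 3 gut markers 1 was lower, and of 5 photoreceptor markers 1 was higher. At ZT2 3 of 12 fat body markers were higher in vriΔ679 and 0 lower, where 1.88% of all genes were higher. With time in vriΔ679, 8 of 12 fat body markers were lower at ZT14 than at ZT2 (median −1.85), where 6.38% of all genes were lower. In wild type 3 of 12 were higher and 1 lower (median 0.17), where 3.91% of all genes were higher and 2.72% lower. The part of cell makeup in the levels of the peptide genes was not tested.

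The genotype comparison at ZT14 asked whether the peptide genes differ between vriΔ679 and wild type in the early night. Of the 9 members 8 stood lower in vriΔ679 and 1, AttB, higher, but none passed the threshold of an adjusted p under 0.05 in limma, at which 22.3% of all genes were called. Differences in log2(scaled FPKM + 0.5) ran from −1.86 for CecC (SE 1.22, 95% interval −4.93 to 1.21, limma adjusted p = 0.309) to 0.12 for AttB (SE 1.40, interval −3.41 to 3.66). The median of the members was −1.07, against −0.0128 over all genes, and adjusted p-values were 0.309 to 0.964. The vriΔ679 and wild-type libraries did not overlap for 2 members, CecC and Drs, both lower in vriΔ679. Over all genes the groups did not overlap for 63.2%, with vriΔ679 lower for 31.6%. Marker medians in the same comparison were −1.06 (fat body), −0.80 (muscle), −0.75 (glia), −0.67 (hemocyte), −0.45 (gut), −0.097 (neuron) and 0.010 (photoreceptor). In other comparisons the fat body median was 0.11 for genotype at ZT2, against −1.52 for the members. It was 0.17 for time in wild type, against −1.77, and −1.85 for time in vriΔ679, against −1.31. In the same order of comparisons, the hemocyte medians were −0.36, −0.38 and −0.77. The gut medians, of 3 markers, were −0.32, −0.80 and −0.73. For glia the medians were −0.33, 0.12 and −0.22, and for muscle 0.052, 0.60 and −0.28. The part of these tissues in the members' difference was not tested.

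These ZT14 values rest on the library labelled vriΔ679 ZT14 replicate 2. Without it the members' median difference was 0.083, with 4 of 9 members lower and a range of −0.72 to 1.58. Without vriΔ679 ZT14 replicate 1 the median was −2.22, with 9 of 9 lower and a range of −3.60 to −1.19. No member was called in either case.

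At ZT2, which asked the same of the morning, all 9 members had a lower mean log2 level in vriΔ679. None passed the threshold (0 of 9, against 2.88% of all genes called), and for no member were the libraries of the groups apart (0 of 9, against 57.7% of all genes). DptB had the largest difference, −2.35 (SE 1.77, 95% interval −6.81 to 2.11, limma adjusted p = 0.647), and Drs the smallest, −0.39 (SE 1.21, interval −3.43 to 2.66, limma adjusted p = 0.938). The members' median was −1.52, against −0.00460 over all genes. Without vriΔ679 ZT2 replicate 1 the median turned to 0.92, with 2 of 9 members lower, and without vriΔ679 ZT2 replicate 2 it was −3.69, with 9 of 9 lower. Leaving out the wild-type ZT2 libraries in turn gave −2.32 (replicate 1) and −0.73 (replicate 2).

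Averaged over both times, vriΔ679 minus wild type ran from −1.84 for DptB (SE 1.25) to −0.31 for AttB (SE 0.99), with 0 of 9 members called against 14.1% of all genes. CecC had the lowest adjusted p of the set (−1.82, SE 0.86, 95% interval −3.99 to 0.36, limma adjusted p = 0.226). The median was −1.30 over the members and −0.0180 over all genes. It was −0.72, with 6 of 9 members lower, without the library labelled vriΔ679 ZT14 replicate 2, and −0.21, with 5 of 9 lower, without vriΔ679 ZT2 replicate 1. The smallest adjusted p reached by a member when any single library was left out was 0.0661, without vriΔ679 ZT2 replicate 2, so this comparison made no call either.

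**Figure D3:**
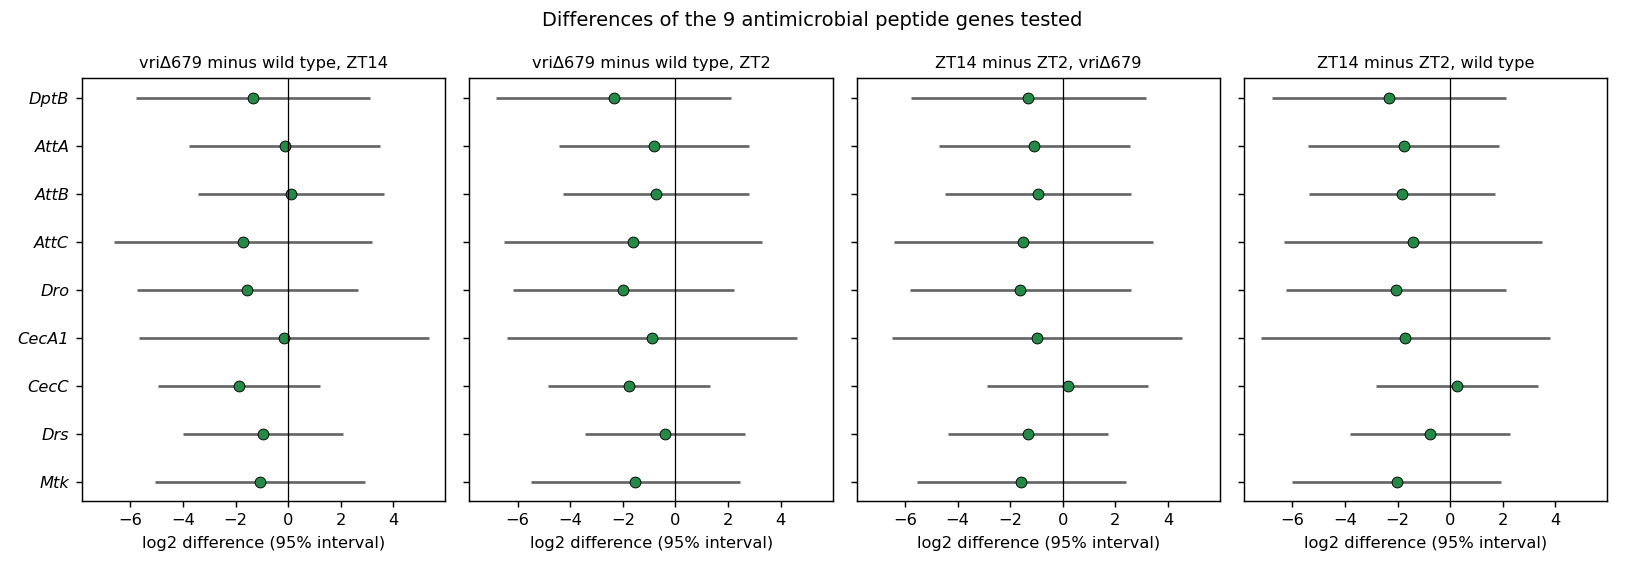
Differences of the 9 tested antimicrobial peptide genes in log2(scaled FPKM + 0.5), as points with 95% intervals from the fit of all 8 libraries, for genotype at each time and for time in each genotype. Every interval includes 0; that of DptB at ZT2 runs from −6.81 to 2.11.

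Time was compared within each genotype. In vriΔ679, ZT14 minus ZT2 ran from −1.62 for Dro (SE 1.67) to 0.19 for CecC (SE 1.22), with 0 of 9 members called against 9.97% of all genes and with no member whose libraries were apart, against 56.3% of all genes. The median was −1.31, with −0.0234 over all genes. It turned to 0.27, with 3 of 9 lower, without the library labelled vriΔ679 ZT14 replicate 2, and to 0.77, with 0 of 9 lower, without vriΔ679 ZT2 replicate 2. It was −2.46 without vriΔ679 ZT14 replicate 1 and −3.32 without vriΔ679 ZT2 replicate 1, with 9 of 9 lower in both cases.

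In wild type 8 of 9 members stood lower at ZT14 than at ZT2, and CecC higher. None was called (0 of 9, against 6.63% of all genes), with a median of −1.77 and 0.00238 over all genes. DptB differed by −2.33 (SE 1.77, 95% interval −6.79 to 2.14, limma adjusted p = 0.586), Dro by −2.06 (SE 1.67) and Mtk by −2.03 (SE 1.58). For 7 members, AttA, AttB, AttC, CecA1, DptB, Dro and Mtk, both ZT14 libraries stood below both ZT2 libraries, against 63% of all genes whose libraries were apart in either direction and 30.9% with ZT14 below. Fitted on the wild-type libraries alone, DptB kept its difference of −2.33 with an SE of 0.376 and was called (limma adjusted p = 0.0365, with 15.5% of all genes called), the one call of a member in any setting. The median was −0.96 without wild-type ZT2 replicate 2 and −2.58 without wild-type ZT2 replicate 1.

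The time difference in vriΔ679 minus that in wild type ran from −0.57 for Drs (SE 1.71) to 1.01 for DptB (SE 2.51), with 0 of 9 members called against 8.25% of all genes. Adjusted p-values were 0.800 to 0.984. The members' median was 0.46, with 3 of 9 below 0. It was 2.04, with 0 of 9 below 0, without the library labelled vriΔ679 ZT14 replicate 2, and 2.55, with 0 of 9, without vriΔ679 ZT2 replicate 2. It turned to −0.997 without vriΔ679 ZT14 replicate 1 and to −1.59 without vriΔ679 ZT2 replicate 1, with 9 of 9 below 0 in both cases, and to −0.19, with 7 of 9, without wild-type ZT2 replicate 2. Without wild-type ZT2 replicate 1 it was 1.25, with 0 of 9 below 0. In none of the 6 comparisons did a member reach an unadjusted p under 0.05, a level passed by 38.8% of all genes for genotype at ZT14, 14.4% for genotype at ZT2, 31.3% for genotype over both times, 31% for time in vriΔ679, 20% for time in wild type and 27% for the difference of the time effects. The median SE of a genotype difference at one time was 1.58 for the members and 0.162 for all genes, so a difference of the size seen here could not be told from 0 at this spread. A missed threshold does not show that the genotypes or times were alike.

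Genes with library profiles closest to the members' median profile were taken by the root mean square difference of centred log2 levels over the 8 libraries. The 6 nearest of 10113 genes were PGRP-SC2 (0.557), CecA2 (0.570), CecB (0.743), Dpt (0.746), edin (0.751) and CR45045 (0.765), with a median of 1.56 over all genes. The members themselves lay between 0.319 (AttA) and 0.941 (CecC). PGRP-SC2, an enzyme that degrades peptidoglycan, had 2.16 and 0.169 FPKM in vriΔ679 at ZT14 and 0.604 and 18.6 FPKM at ZT2, against 0.720 and 1.20 FPKM in wild type at ZT14 and 2.17 and 8.75 FPKM at ZT2. Dpt, a diptericin beside DptB, had 68.2 and 4.54 FPKM in vriΔ679 at ZT14 and 4.01 and 325 FPKM at ZT2, against 24.8 and 49.0 FPKM in wild type at ZT14 and 116 and 200 FPKM at ZT2. In both genes vriΔ679 ZT2 replicate 2 was highest, and the lowest was the library labelled vriΔ679 ZT14 replicate 2 for PGRP-SC2 and vriΔ679 ZT2 replicate 1 for Dpt.

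Other antimicrobial and immune-induced peptides were listed as 34 genes, of which 29 were tested. Anp, Drsl1, Drsl3, Drsl6 and CG13749 stayed below 1 FPKM in all libraries. At ZT14 2 of 29 were higher in vriΔ679 and 0 lower, where 9.53% of all genes were higher and 12.8% lower. At ZT2 1 was higher and 0 lower (all genes 1.88% and 1.01%), and over both times 3 were higher and 0 lower (all genes 5.87% and 8.2%). With time, 1 was lower at ZT14 than at ZT2 in vriΔ679 and 0 higher, where 6.38% of all genes were lower and 3.59% higher. In wild type 2 were lower and 0 higher, where 2.72% of all genes were lower and 3.91% higher. Without the library labelled vriΔ679 ZT14 replicate 2, the list had 6 higher and 0 lower in vriΔ679 at ZT14, 2 and 0 at ZT2 and 5 and 0 over both times, and 2 higher and 0 lower with time in vriΔ679. Without vriΔ679 ZT14 replicate 1 it had 1 higher and 1 lower at ZT14 and 2 higher and 2 lower over both times. The median differences of the list were 0.35 at ZT14, 0.15 at ZT2 and 0.24 over both times. In vriΔ679 at ZT14 29 of 29 were higher in replicate 1 and at ZT2 28 of 29 in replicate 2, against 15 of 29 in replicate 1 for wild type at ZT14 and 23 of 29 in replicate 2 for wild type at ZT2. Their median gaps of 0.79 and 1.34 log2 units in vriΔ679 at ZT14 and ZT2, and 0.39 and 0.46 in wild type at ZT14 and ZT2, were smaller than the members' 2.63 and 3.47 in vriΔ679 and 0.51 and 1.59 in wild type. The 2 lists were not tested against each other.

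Drsl5, a drosomycin-like gene (3L 3316781–3317144), rose in vriΔ679 where the members made no call. It had 682 and 497 FPKM in vriΔ679 at ZT14 and 617 and 803 FPKM at ZT2, against 113 and 83.3 FPKM in wild type at ZT14 and 228 and 204 FPKM at ZT2. All 4 vriΔ679 libraries, the one labelled vriΔ679 ZT14 replicate 2 included, stood above all 4 wild-type libraries. The difference was 2.58 at ZT14 (SE 0.23, limma adjusted p = 0.000953) and 2.14 over both times (SE 0.16, limma adjusted p = 0.000777), both called in every setting and with each library left out. At ZT2 it was 1.70 (SE 0.23, limma adjusted p = 0.0121), and this call ended without vriΔ679 ZT2 replicate 2 (0.0845) or either wild-type ZT2 library (0.0775 and 0.106). In wild type Drsl5 fell by 1.15 at ZT14 relative to ZT2 (SE 0.23, limma adjusted p = 0.0331), and this call was lost with any wild-type library left out or with no filter on low values.

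Its neighbour Drsl4 (3L 3315620–3315942) had 227 and 92.3 FPKM in vriΔ679 at ZT14 and 93.0 and 138 FPKM at ZT2, against 66.0 and 73.5 FPKM in wild type at ZT14 and 44.0 and 54.0 FPKM at ZT2. Over both times the difference was 1.13 (SE 0.28, limma adjusted p = 0.0428), and the call was lost with any wild-type or vriΔ679 ZT2 library left out. CG15065, the Bomanin BomS5, one of a family of short peptides induced through Toll, had 122 and 66.6 FPKM in vriΔ679 at ZT14 and 48.0 and 147 FPKM at ZT2, against 17.4 and 17.5 FPKM in wild type at ZT14 and 28.3 and 47.8 FPKM at ZT2. It was higher by 2.33 at ZT14 (SE 0.56, limma adjusted p = 0.0327) and by 1.76 over both times (SE 0.40, limma adjusted p = 0.0366). Both calls were lost without any wild-type library or vriΔ679 ZT14 replicate 1.

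The other Bomanins were IM1, IM2, IM3, CG18107, CG15068, IM23, CG15067, CG5791, CG43202, CG16836 and CG5778, and none was called between genotypes. CG5791 fell at ZT14 relative to ZT2 in wild type (−1.37, SE 0.31, limma adjusted p = 0.0481), and CG16836 did so in vriΔ679 (−1.16, SE 0.28, limma adjusted p = 0.0458). The CG5791 call was lost with any wild-type library left out, and the CG16836 call with any library left out other than vriΔ679 ZT2 replicate 1. IM3 and IM2 were among the highest peptide genes of the head, with 273 to 771 FPKM and 156 to 478 FPKM over the 8 libraries. IM18 ranged more widely, with 4.46 and 0.991 FPKM in vriΔ679 at ZT14 and 2.13 and 145 FPKM at ZT2, against 6.12 and 6.51 FPKM in wild type at ZT14 and 12.9 and 36.5 FPKM at ZT2.

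None of the remaining peptide genes was called in any comparison. These were AttD, CecA2, CecB, Dpt, Drsl2, IM4, IM14, IM18, CG16712, CG33470, IM10, edin, TotA, TotC and TotM. The Turandot genes TotA, TotC and TotM, known as stress-induced secreted proteins, stood at 12.9 to 170, 11.3 to 85.3 and 1.74 to 20.6 FPKM. CG33470 and IM10 are near-identical baramicin copies, so the 2.27 to 48.0 FPKM of IM10 depend on how reads were divided between them.

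**Figure D4:**
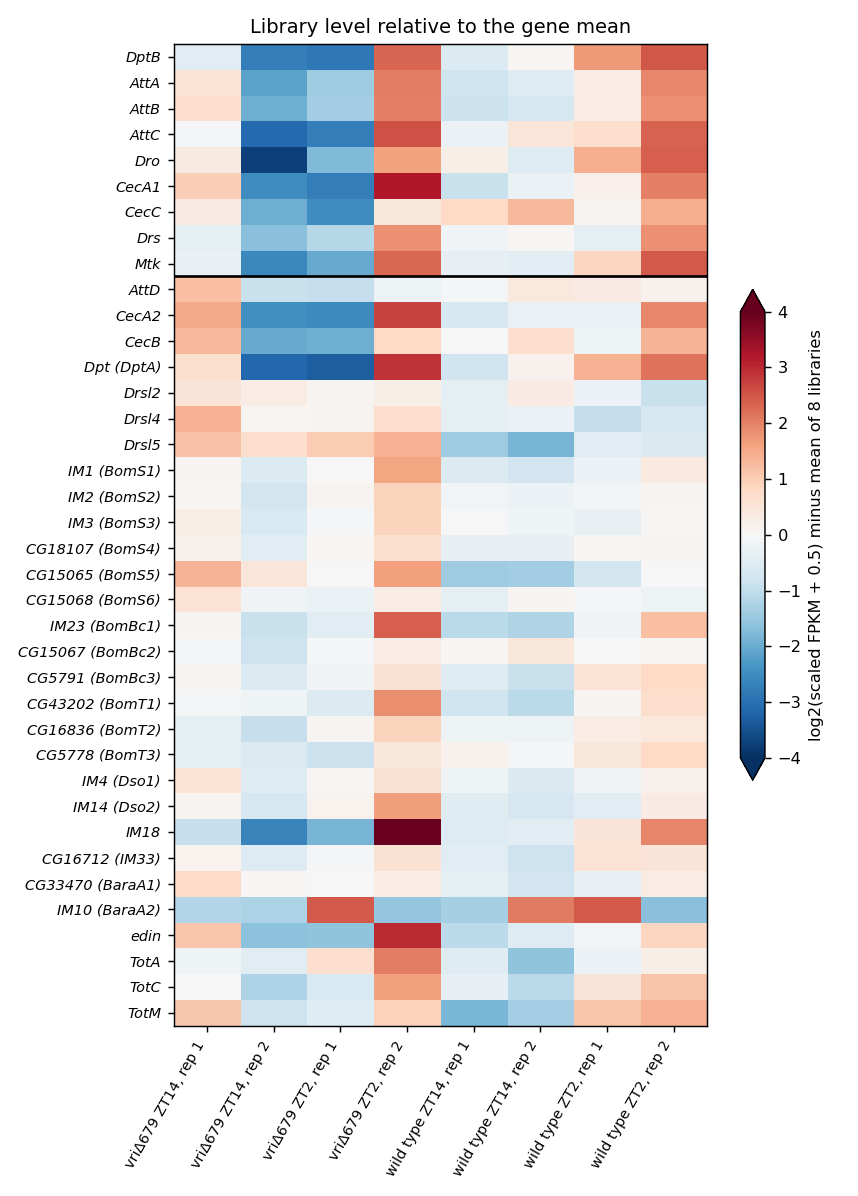
Level of the 9 tested antimicrobial peptide genes (above the line) and of the 29 other peptide genes tested (below it) in each library, as log2(scaled FPKM + 0.5) minus the gene's mean over the 8 libraries. The members are red in vriΔ679 ZT2 replicate 2 and wild-type ZT2 replicate 2 and blue in the library labelled vriΔ679 ZT14 replicate 2 and in vriΔ679 ZT2 replicate 1, whereas Drsl5 is red in all vriΔ679 libraries and blue in all wild-type libraries.

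Genes of the Imd pathway, which carry the signal to the peptide genes, differed between replicates about as little as genes in general. All 15 listed genes were tested, and their median gap was 0.26 log2 units in vriΔ679 at ZT14 and 0.089 at ZT2, against 0.094 in wild type at ZT14 and 0.095 at ZT2. Over all genes the median gap was 0.32 and 0.13 in vriΔ679 at ZT14 and ZT2, and 0.11 and 0.10 in wild type. At ZT14 1 gene was higher and 2 were lower in vriΔ679, where 9.53% of all genes were higher and 12.8% lower. Over both times 1 was higher and 1 lower (all genes 5.87% and 8.2%), and at ZT2 0 were called in limma, with 0 at an unadjusted p under 0.05, a level passed by 14.4% of all genes. Without the library labelled vriΔ679 ZT14 replicate 2, 5 were higher and 3 lower at ZT14 and 4 higher and 2 lower over both times. Rel, which encodes Relish, was not called; it had 53.0 and 30.4 FPKM in vriΔ679 at ZT14 and 42.5 and 45.3 FPKM at ZT2, against 43.5 and 42.3 FPKM in wild type at ZT14 and 52.2 and 55.0 FPKM at ZT2.

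Uev1A, which encodes a partner of the ubiquitin-conjugating enzyme Bendless, was the gene called higher. It had 145 and 132 FPKM in vriΔ679 at ZT14 and 49.6 and 48.7 FPKM at ZT2, against 41.0 and 44.3 FPKM in wild type at ZT14 and 40.7 and 56.7 FPKM at ZT2. The vriΔ679 ZT14 libraries, the one labelled replicate 2 included, stood above the other 6. The genotype difference at ZT14 was 1.69 (SE 0.17, limma adjusted p = 0.00134), and ZT14 minus ZT2 in vriΔ679 was 1.49 (SE 0.17, limma adjusted p = 0.00464). The difference between the time effects of the genotypes was 1.66 (SE 0.24, limma adjusted p = 0.0100), in a comparison that called 2.37% of all genes higher and 5.88% lower. These calls and that over both times held in every setting.

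The genes called lower in vriΔ679 at ZT14 were eff, which encodes another ubiquitin-conjugating enzyme, and ird5, which encodes a subunit of the IκB kinase. The first differed by −0.72 (SE 0.12, limma adjusted p = 0.00790), a call that ended without either wild-type ZT14 library (0.0605 and 0.0627), and the second by −0.49 (SE 0.13, limma adjusted p = 0.0379), a call lost with any library left out other than the one labelled vriΔ679 ZT14 replicate 2. PGRP-LC, the membrane receptor of the pathway, fell at ZT14 relative to ZT2 in both genotypes. Its differences were −0.68 in vriΔ679 (SE 0.11, limma adjusted p = 0.0146) and −0.52 in wild type (SE 0.11, limma adjusted p = 0.0386), with 24.1 and 21.3 FPKM at ZT14 and 36.7 and 36.9 FPKM at ZT2 in vriΔ679, and 24.5 and 25.6 FPKM at ZT14 and 37.1 and 35.1 FPKM at ZT2 in wild type. The call in vriΔ679 was lost without either vriΔ679 ZT2 library and that in wild type without any wild-type or vriΔ679 ZT2 library.

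Of 12 listed regulators of Imd signalling, most of which hold the pathway down, 9 were tested. At ZT14 2 were lower in vriΔ679 and 0 higher, where 12.8% of all genes were lower, and over both times 3 were lower and 0 higher, where 8.2% of all genes were lower. At ZT2 0 were called in limma, with 3 at an unadjusted p under 0.05, a level passed by 14.4% of all genes. Without the library labelled vriΔ679 ZT14 replicate 2, 3 were lower at ZT14, 2 at ZT2 and 5 over both times. With other single libraries left out, the count over both times ran from 0 to 3. The gene casp, which encodes Caspar, a negative regulator of Relish cleavage, had 23.2 and 22.9 FPKM in vriΔ679 at ZT14 and 27.3 and 28.3 FPKM at ZT2, against 42.1 and 47.7 FPKM in wild type at ZT14 and 26.7 and 28.1 FPKM at ZT2. It was lower in vriΔ679 at ZT14 by −0.94 (SE 0.11, limma adjusted p = 0.00238), a call held in every setting, and its time effects differed between the genotypes by −0.96 (SE 0.15, limma adjusted p = 0.0150). The other regulator called lower at ZT14 was sick (−0.69, SE 0.16, limma adjusted p = 0.0264), and leaving out any wild-type library ended this call. Over both times PGRP-LB (−0.67, SE 0.13, limma adjusted p = 0.0212) and pirk (−0.62, SE 0.16, limma adjusted p = 0.0475) were lower along with casp (−0.46, SE 0.077, limma adjusted p = 0.0125), and each of the 3 calls was lost with 4 or more single libraries left out.

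With time in wild type, PGRP-LB, PGRP-LF and pirk, negative regulators of Imd signalling, fell at ZT14 relative to ZT2, whereas casp and dnr1 rose. Their differences were −0.93 (SE 0.19, limma adjusted p = 0.0339) for PGRP-LB, −0.82 (SE 0.12, limma adjusted p = 0.0118) for PGRP-LF and −1.03 (SE 0.23, limma adjusted p = 0.0432) for pirk. The gene dnr1, which encodes an inhibitor of the caspase Dredd, rose by 1.47 in wild type (SE 0.21, limma adjusted p = 0.0107) and by 1.04 in vriΔ679 (SE 0.21, limma adjusted p = 0.0293). Every one of the calls in wild type was lost without each wild-type library in turn, and the dnr1 call in vriΔ679 without 6 of the 8 libraries. In vriΔ679 1 regulator, dnr1, was called with time and 0 were lower.

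All 19 listed genes of the Toll pathway were tested. At ZT14 3 were lower in vriΔ679 and 0 higher, where 12.8% of all genes were lower and 9.53% higher, and over both times 1 was lower, where 8.2% were. At ZT2 0 were called in limma, with 2 at an unadjusted p under 0.05, against 14.4% of all genes. Without the library labelled vriΔ679 ZT14 replicate 2, 6 were lower and 1 higher at ZT14 and 4 lower and 1 higher over both times, and without vriΔ679 ZT14 replicate 1, 5 and 4 were lower, with 0 higher. Leaving out any other single library gave 1 lower at ZT14 and 0 or 1 over both times. Myd88, the adaptor that binds the Toll receptor, had 10.7 and 10.3 FPKM in vriΔ679 at ZT14 and 15.2 and 16.5 FPKM at ZT2, against 18.4 and 17.6 FPKM in wild type at ZT14 and 17.2 and 17.3 FPKM at ZT2. Both vriΔ679 ZT14 libraries stood below all others. Its difference was −0.75 at ZT14 (SE 0.10, limma adjusted p = 0.00423), called in every setting, and −0.43 over both times (SE 0.072, limma adjusted p = 0.0123), lost with 5 single libraries left out. Dif (−0.42, SE 0.10, limma adjusted p = 0.0299), one of the pathway's NF-κB factors, and Hayan (−0.43, SE 0.12, limma adjusted p = 0.0412), a protease upstream of Toll, were the other genes lower at ZT14. Both calls were lost without each wild-type library and without each vriΔ679 ZT2 library.

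With time, Myd88 (−0.57, SE 0.10, limma adjusted p = 0.0200) and Dif (−0.43, SE 0.10, limma adjusted p = 0.0473) were lower at ZT14 than at ZT2 in vriΔ679. In wild type PGRP-SD, a secreted recognition protein, was lower at ZT14 (−0.90, SE 0.18, limma adjusted p = 0.0309), and no Toll gene was higher with time in either genotype. These 3 calls were lost with 6 or more single libraries left out. Exons of Dif, Hayan, PGRP-SD and PGRP-LF overlap those of an antisense gene each, so their values are uncertain. Of 7 lysozyme genes, which encode enzymes that cut bacterial cell walls, 1, LysS, was tested and not called.

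**Figure D5:**
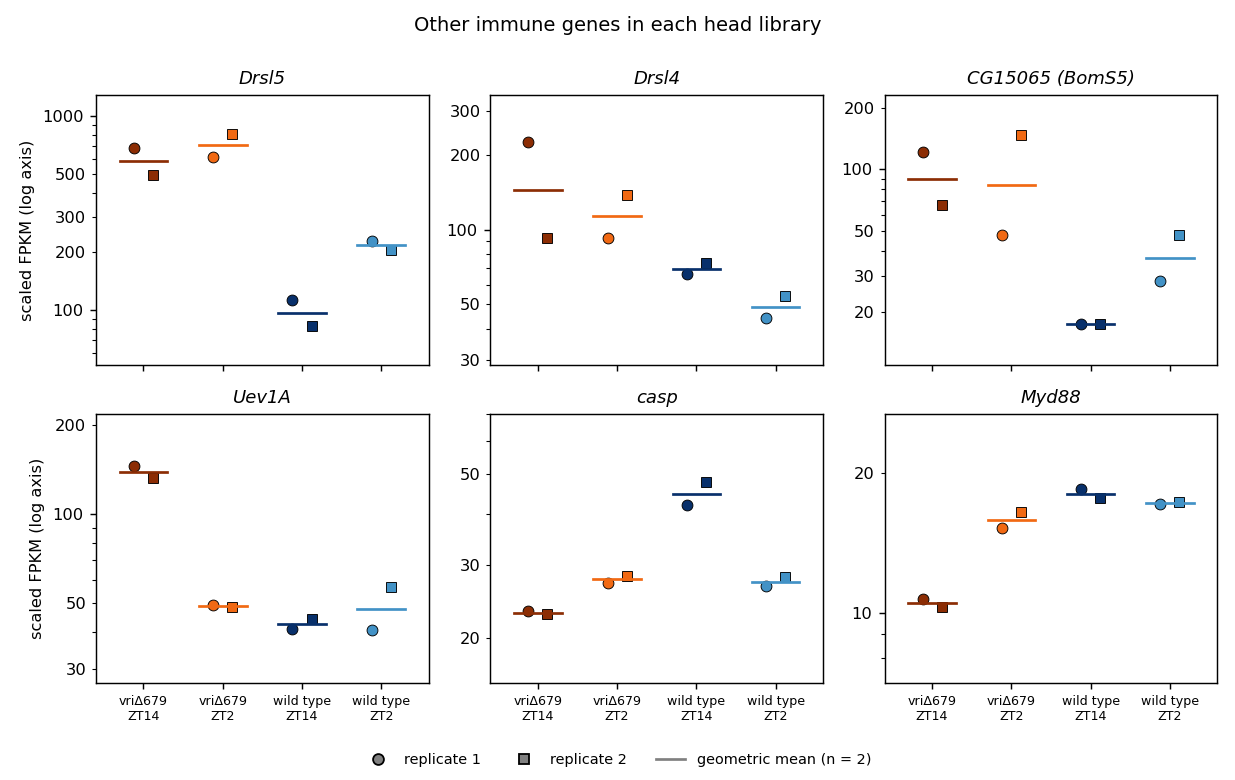
Other immune genes in every head library, as scaled FPKM on log axes, with circles for replicate 1, squares for replicate 2 and a line at the geometric mean (n = 2). The vriΔ679 libraries of Drsl5 stand at 497 to 803, above the wild-type libraries at 83.3 to 228, and the vriΔ679 ZT14 libraries stand above all others for Uev1A and below all others for casp and Myd88.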

How the data were processed

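Poly(A) RNA of fly heads was sequenced as 75 nt single-end reads with a directional kit, per the labels' protocols, in 8 libraries of 4 groups. Alignment with STAR 2.6.1d to dm6 and quantification with StringTie are listed in the submitters' processing notes, without a strand setting. Per the file headers, the deposited values are FPKM per RefSeq transcript (35411 transcripts), and the authors' signal column is coverage, used for estimated reads and for one alternative added after the data were seen. Coordinates are those of the deposited tables on dm6 and were the same in the BDGP6 annotation for all 10 members.

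FPKM was summed per gene and rescaled with median-ratio factors of 0.968 to 1.04, computed over 12078 genes. Genes with at least 1 FPKM in at least 2 libraries, 10122 in all, entered one limma 3.58.1 fit (R 4.3.3, eBayes with trend and robust options, statmod 1.5.0) of the 4 group means on log2(scaled FPKM + 0.5). Fold changes on this scale understate those of low genes. The 6 comparisons were taken from this fit, each adjusted by Benjamini-Hochberg over all genes, with 0.05 as the threshold. The fit was tested on simulated data in which each gene varied independently. The members shifted together between replicates, so that test does not cover their shared shifts. Named genes were all members, every gene of the other peptide list, called genes of the other lists, up to 4 a comparison, and the 6 genes nearest the members' profile. All 150 listed genes were matched to the tables through reference gene names. The members and lists were chosen with earlier results of these data known. Promoter and protein sequences were not analysed here. Estimated reads and floors cover counting error only. Other settings changed the filter, the scaling, the offset, the fit, the copies, the samples and the replicate block.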

Additional observations from a re-analysis of the deposited data

Results flagged for a closer look

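No member of the antimicrobial peptide set had a difference between groups that itself differed by a test. Among the related immune genes, 3 had time effects that differed between the genotypes, by the interaction term of the limma fit over all genes. The time effect of Uev1A in vriΔ679 minus that in wild type was 1.66, called in every setting. For casp it was −0.96, called in 13 of 18 settings, and for Myd88 it was −0.64, called in 8 of 18. The casp call was lost without either vriΔ679 ZT2 library, either wild-type ZT2 library or replicate 2 of wild type at ZT14, and the Myd88 call without any wild-type or vriΔ679 ZT2 library. With 2 libraries a group, no library was tested as an outlier within its group.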

How the results depend on the processing

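The count of antimicrobial peptide genes called was 0 in all 6 comparisons under every setting run (of 8 with copies merged, of 10 with no filter and of 9 otherwise), except that 1 was called for time in wild type when only the groups compared were fitted (DptB). Over all genes and all 4 groups the replicate numbers did not pair the samples, with correlations of replicate deviations of −0.143 to 0.270. The highest, 0.270, was between the ZT2 groups of the 2 genotypes, in both of which all 9 tested members were higher in replicate 2. Whether those replicates shared a batch was not tested. With a replicate block the count was 0 in each comparison (lowest limma adjusted p 0.695 for genotype at ZT2). Of 1008 single-gene values under alternatives, 936 kept their direction and 72 did not, 69 of them with a library left out. The other 3 were AttB for genotype at ZT14 with near-identical copies merged (−0.035) and CecC for genotype by time with quantile normalization (0.036) or an offset of 0.1 (0.012).

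The direction of 36 of 54 member differences turned when one library was left out, and none was called. The values below are the lowest and highest log2 differences over these fits. For genotype at ZT14 they ran from −1.48 to 1.23 for AttA, −1.19 to 1.44 for AttB, −1.88 to 1.58 for CecA1, −3.60 to 0.49 for Dro and −2.22 to 0.083 for Mtk. For genotype at ZT2 they ran from −2.55 to 0.92 for AttA, −2.46 to 0.96 for AttB, −4.26 to 1.02 for AttC, −3.86 to 2.09 for CecA1, −4.96 to 0.26 for DptB, −1.87 to 1.09 for Drs and −3.69 to 0.64 for Mtk. For genotype over both times they ran from −1.34 to 0.40 for AttA, −1.17 to 0.54 for AttB, −2.01 to 0.97 for CecA1 and −1.41 to 0.069 for Drs. For time in vriΔ679 they ran from −2.82 to 0.66 for AttA, −2.66 to 0.77 for AttB, −4.13 to 1.14 for AttC, −3.94 to 2.01 for CecA1, −1.28 to 1.65 for CecC, −3.92 to 1.30 for DptB, −3.66 to 0.42 for Dro, −2.82 to 0.14 for Drs and −3.75 to 0.59 for Mtk. For time in wild type they ran from −0.40 to 0.94 for CecC and −1.89 to 0.35 for Drs. For the difference of the time effects they ran from −1.05 to 2.42 for AttA, −0.84 to 2.59 for AttB, −2.73 to 2.55 for AttC, −2.24 to 3.71 for CecA1, −1.55 to 1.38 for CecC, −1.59 to 3.62 for DptB, −1.61 to 2.48 for Dro, −2.05 to 0.91 for Drs and −1.71 to 2.63 for Mtk.

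Where a group was left with 1 library, that library was assumed to vary like the other groups. Of the 38 calls among the other immune genes, 8 held in every setting and 30 were lost with at least 1 library left out. With the replicate block 9 of these calls had an adjusted p above the threshold: CG15065 (adjusted p = 0.0620) and Hayan (0.0570) for genotype at ZT14, CG15065 (0.0705) and Drsl4 (0.0844) for genotype over both times, CG16836 (0.0547) and Dif (0.0665) for time in vriΔ679, CG5791 (0.0715) and PGRP-LC (0.0535) for time in wild type, and Myd88 (0.0643) for the difference of the time effects. The lowest tested value of a member rested on an estimated 14.3 reads.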
